A study of Mus musculus with 4 samples.

Results

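The genes of the proteasome, the protease that degrades ubiquitin-tagged proteins, were examined in neonatal polymorphonuclear myeloid-derived suppressor cells (PMN-MDSCs, immunosuppressive neutrophils) of Dhps cko and Dhps flox mice. The genes were selected by symbol: every gene named Psma, Psmb, Psmc, Psmd, Psme, Psmf or Psmg followed by a number, leaving out the immunoproteasome genes Psmb8, Psmb9 and Psmb10. This gave 45 of the 28585 genes listed. PMN-MDSCs (CD11b+, Ly6G+, Ly6C low or negative) were sorted from spleens of C57BL/6J pups on postnatal day 7, and bulk RNA sequencing was performed on 4 libraries. In the 2 Dhps cko libraries the pups were Dhps fl/fl with Lysm cre, and in the 2 Dhps flox libraries they were Dhps fl/fl without Cre, so both genotypes carry the floxed alleles. Dhps encodes deoxyhypusine synthase, which uses spermidine to make the hypusine residue of the translation factor eIF5A. Lysm cre is expressed from the Lyz2 locus in neutrophils, monocytes and macrophages, and is therefore not specific to PMN-MDSCs. Both sexes were used in the study, and the labels do not say whether a library came from 1 pup or from a pool. The p-values therefore measure the spread between these libraries, which may be technical in part.

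The proteasome is built from a barrel-shaped core particle (20S) and regulatory particles that cap its ends. The core consists of outer alpha rings, encoded by Psma genes, that gate the entrance, and inner beta rings, encoded by Psmb genes, of which Psmb5, Psmb6 and Psmb7 provide the cutting sites. The 19S regulatory particle binds ubiquitin, removes it, and feeds the unfolded protein into the core by means of a ring of ATPases encoded by Psmc genes. Other caps (Psme genes), an inhibitor (Psmf1) and dedicated assembly chaperones (Psmg genes and some Psmd genes) complete the family. In immune cells, interferons induce Psmb8, Psmb9 and Psmb10, whose products replace the constitutive cutting subunits.

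The values are FPKM (the fragments of a gene scaled by its length and by the mapped fragments of the library). The libraries had approximate depths of 29000000 to 32700000 fragments, read from the spacing of low values, and 10611 to 10729 genes at 1 FPKM or more. Read counts were not recoverable, so no counting interval is given. The targeted gene Dhps was at 2.38 and 2.59 FPKM in Dhps cko and at 3.57 and 3.11 FPKM in Dhps flox (log2 fold change -0.41, standard error (SE) 0.13, limma adjusted p = 0.63). It was thus lower but still detected in both Dhps cko libraries, and a value over the whole gene does not separate the floxed exons. Neutrophil markers dominated every library, with 10 genes summing to between 71280 and 77973 FPKM. Markers of other cells were present at much lower levels, and some were higher in Dhps cko. The summed FPKM of 10 monocyte-macrophage markers was 206.6 and 209.7 in Dhps cko and 168.5 and 164.9 in Dhps flox, that of 8 B cell markers was 65.7 to 68.8 and 42.3 to 51.3, and that of 8 T cell markers 13.6 to 17.02 and 7.44 to 10.9. Of the neutrophil markers, 4 of 10 were higher in both Dhps cko libraries and 0 were lower in both, and their sum of 75769 and 77973 FPKM in Dhps cko did not overlap that of 75728 and 71280 FPKM in Dhps flox. Ly6g, whose product was used in the sort, was at 222.2 and 241.6 against 195.0 and 184.8 FPKM (log2 fold change 0.29, SE 0.07, limma adjusted p = 0.53). Of the monocyte-macrophage, B cell and T cell markers tested, 8 of 10, 6 of 8 and 4 of 7 were higher in both Dhps cko libraries, as were 20% of all genes tested. The 8 cell cycle markers summed to 335.9 and 309.9 FPKM in Dhps cko and 342.2 and 344.2 FPKM in Dhps flox, and Mki67 and Top2a were lower in both Dhps cko libraries. Primary granule and erythroid markers overlapped between genotypes, and no marker of any list was at 0 in every library. Genes of the Y chromosome (Uty, Kdm5d, Eif2s3y and Ddx3y) summed to 7.07 and 8.07 FPKM in Dhps cko and to 17.6 and 15.6 FPKM in Dhps flox, and Xist was at 27.5 and 20.3 against 16.2 and 17.2 FPKM. The sex of the pups and the genotype cannot be told apart in these libraries. In bulk RNA, fewer cells of a type and less RNA per cell cannot be told apart either.

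All 7 alpha and 7 beta subunit genes of the core and all 17 genes of the 19S particle among the members were expressed at several FPKM or more, whereas most assembly genes were low. The median level over the 4 libraries was 17.8 FPKM for the core genes and 16.7 FPKM for the 19S genes. Psma6, an alpha subunit gene, was the most abundant of all members, at 54.2 and 57.0 FPKM in Dhps cko and 49.4 and 49.6 FPKM in Dhps flox. Its mean was 1.73 times that of the next core gene, Psmb2, and 8.92 times that of Psma3, the lowest core gene at 5.26 to 6.45 FPKM. Core subunits are present in equal numbers in the particle, but the FPKM of their genes was not equal. FPKM compared between genes depends on the gene lengths used, which are not given. Psma6 has 1234 exon bases and Psma3 has 3894. The 19S genes lay closer together, from 7.52 FPKM for Psmd11 to 29.1 FPKM for Psmc3, a 3.88-fold range. The mean of Psmc3 was 1.07 times that of the next gene, Psmc1, and the libraries of these neighbours overlapped. The members at the bottom of the order included the core assembly genes Psmg1, Psmg2, Psmg3 and Psmg4, which lay between 0.92 and 3.05 FPKM in all libraries. Psma8, a testis alpha subunit gene, was at most 0.08 FPKM and Psmb11, a thymus beta subunit gene, at most 0.05 FPKM. These 2 tissue-restricted members had a mean below 0.1 FPKM and were not tested, which left 43 members.

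**Figure D1:**
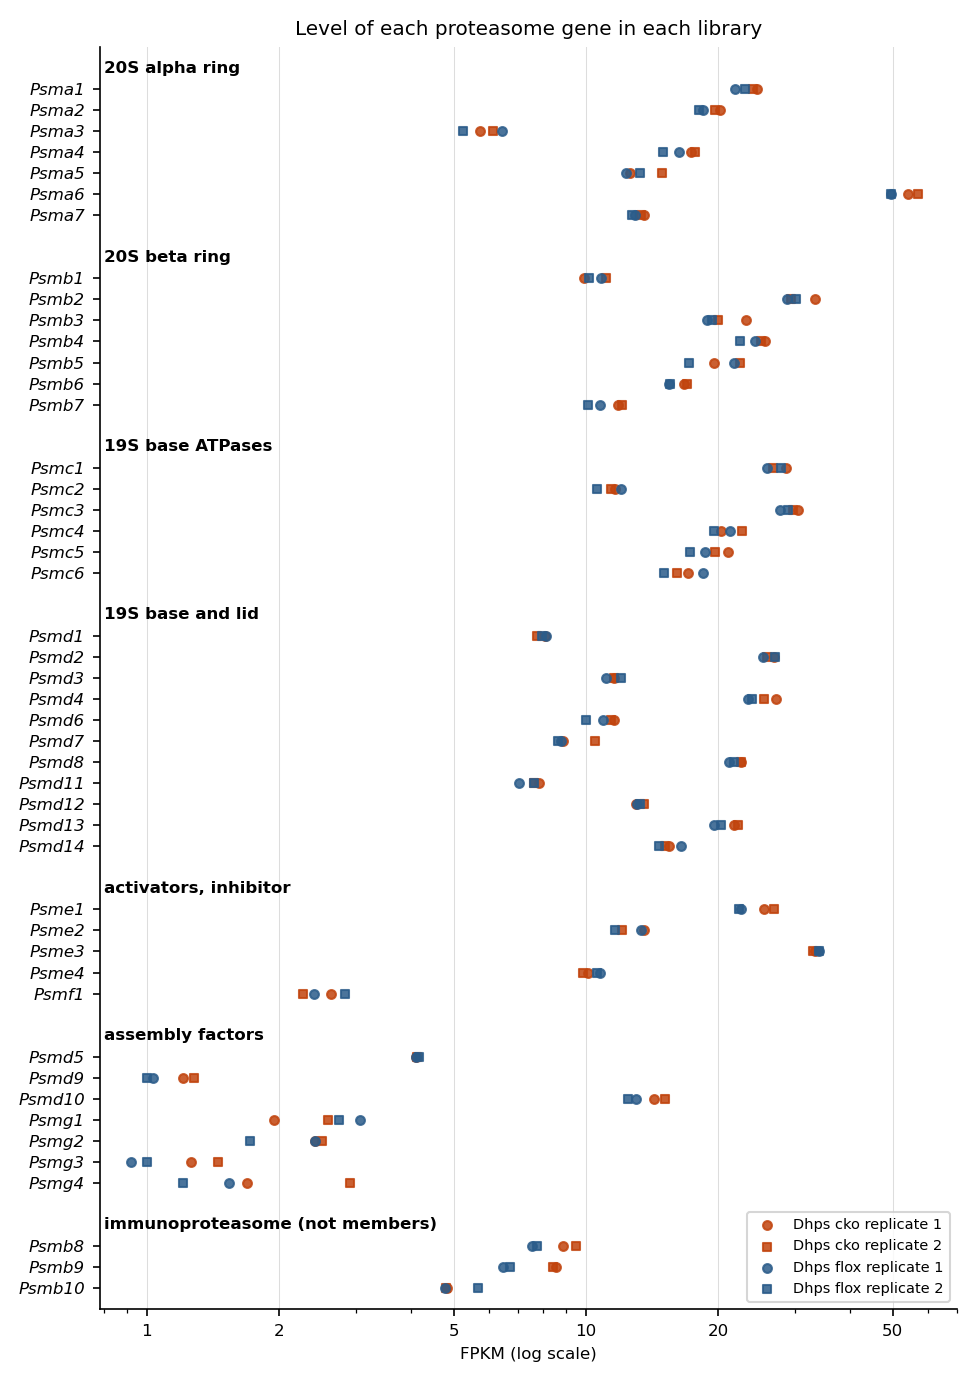
Level of each tested proteasome gene and of the 3 immunoproteasome genes in each library, in FPKM on a log scale, with genes grouped by role and 1 point per library. Psma6 lies far to the right of the other core genes, the Psmg genes lie at the left, and for most genes the 4 points fall close together.

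The mean log2 level of most proteasome genes was slightly higher in Dhps cko than in Dhps flox PMN-MDSCs, but no member passed the test after adjustment. The comparison used limma on log2(FPKM + 0.1), and 17948 genes whose mean reached 0.1 FPKM were tested. Of the 43 members tested, 0 had an adjusted p under 0.05 (0.00557% of all genes tested did, 1 gene), and the lowest adjusted p of a member was 0.58. At an unadjusted p under 0.05, 4 members were found, all higher in Dhps cko: Psme1, Psma6, Psmd10 and Psmb7. These were 9.3% of the members, whereas 4.72% of all genes tested were higher and 2.28% lower at this threshold. The 4 calls were reduced to 1, that of Psme1, with TPM scaling, with quantile normalisation, with a correction for transcript length and with a replicate block. Without Dhps flox replicate 2 the count was 0, and without Dhps cko replicate 2 it was 1, that of Psmb3. The log2 fold change was above 0 for 35 of the 43 members and below 0 for 8, while 52.2% of all genes tested were above 0. With TPM scaling, which sets the sum of every library equal, these numbers were 29 and 14, and 46.0% of all genes were above 0. All 14 core genes were above 0, but Psma3 and Psmb1 were below 0 with TPM scaling. With each library left out, 0 to 3 of the 14 were below 0. The median log2 fold change of the members was 0.08, which is 6.06% higher, and that of all genes tested was 0.01. With TPM scaling the median of the members was 0.05. The differences were small, and 22 members differed by less than 0.1 on the log2 scale in either direction.

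Both Dhps cko libraries lay above both Dhps flox libraries for 21 members (48.8%), a separation found for 20% of all genes tested. Both lay below for 3 members, Psme3, Psme4 and Psmg1 (6.98% of the members and 16.0% of all genes tested). For the other 19 members the genotypes overlapped. With 1 library left out, the log2 fold change of 8 of the 21 members moved by over 1.5 times (Psma1, Psma4, Psmb3, Psmb4, Psmc3, Psmd6, Psmd7 and Psmg4). Among genes whose mean lay within the range of the members of at least 1 FPKM, 20.4% were above and 17.7% below. The number of members above was 16 with TPM scaling, where 16.2% of all genes lay above, and 19 after the correction for transcript length, where 17.9% did. The shift was shared by both libraries of a genotype. The median deviation of the members from their means was 0.05 and 0.04 on the log2 scale in Dhps cko replicates 1 and 2, and -0.05 and -0.07 in Dhps flox replicates 1 and 2. Over all genes tested it was 0.02, -0.01, -0.00 and -0.00 in the same order. The shares are descriptions of these libraries, and the list was not tested as a set.

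**Figure D2:**
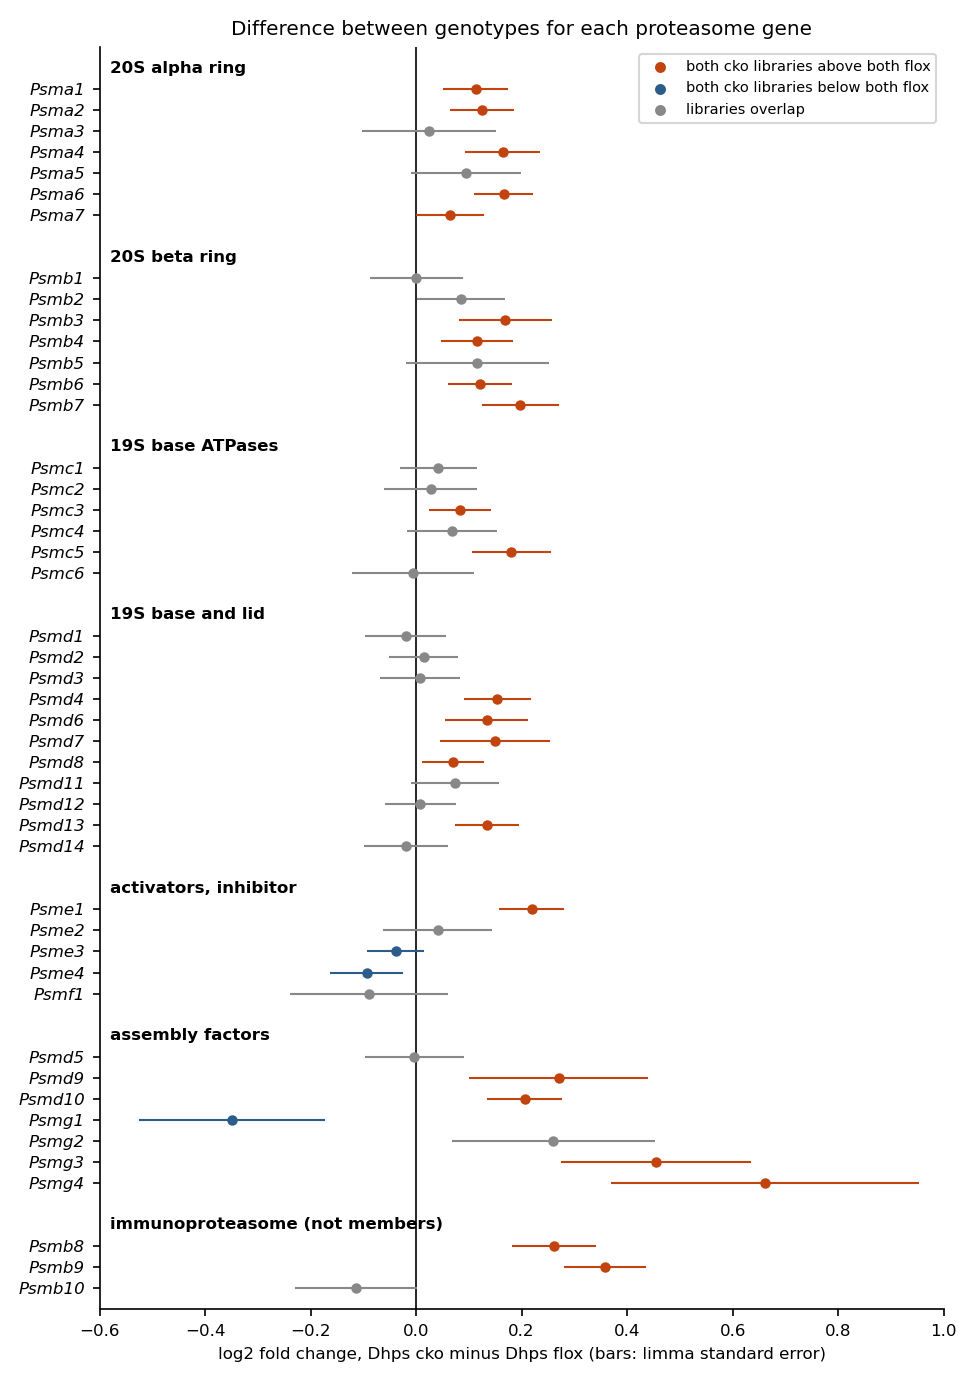
Log2 fold change (Dhps cko minus Dhps flox) of each tested proteasome gene and of the 3 immunoproteasome genes, with bars of 1 standard error from limma and colours for the separation of the libraries. All 14 core genes lie at or to the right of 0 (with TPM scaling, Psma3 and Psmb1 were below 0), the 19S genes lie nearer to 0, and the assembly genes spread from -0.35 for Psmg1 to 0.66 for Psmg4.

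Among the alpha ring genes, Psma1, Psma2, Psma4, Psma6 and Psma7 were higher in both Dhps cko libraries, and Psma3 and Psma5 overlapped between genotypes. With TPM scaling, Psma1 and Psma7 overlapped as well, which left 3 of the 7 genes separated, where 16.2% of all genes tested were (20% without this scaling). Over the 7 genes the log2 fold change had a median of 0.11. Psma6 (ENSMUSG00000021024; GRCm38 chromosome 12, 55384222 to 55418454) was at 55.6 ± 1.96 FPKM in Dhps cko and 49.5 ± 0.099 FPKM in Dhps flox (SD, n = 2 libraries each). Its log2 fold change was 0.17 with an SE of 0.06 and a 95% confidence interval of 0.02 to 0.31 (limma unadjusted p = 0.031, adjusted p = 0.65). Psma4 was at 17.3 and 17.7 FPKM in Dhps cko and 16.3 and 15.0 FPKM in Dhps flox, a log2 fold change of 0.16 with an SE of 0.07 that was 0.11 without Dhps flox replicate 2. Psma2 was at 20.2 and 19.7 against 18.5 and 18.1 FPKM, and its log2 fold change was 0.13 with an SE of 0.06. The libraries of Psma3 overlapped, at 5.73 and 6.13 FPKM in Dhps cko and 6.45 and 5.26 FPKM in Dhps flox, and its log2 fold change of 0.02 was below 0 with TPM scaling. Psma1 was at 24.5 and 24.0 FPKM in Dhps cko and 21.8 and 23.0 FPKM in Dhps flox. Psma7 lay between 12.7 and 13.6 FPKM over all libraries and Psma5 between 12.4 and 14.9 FPKM, with log2 fold changes of 0.06 and 0.10.

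Among the beta ring genes, Psmb3, Psmb4, Psmb6 and Psmb7 were higher in both Dhps cko libraries, and Psmb1, Psmb2 and Psmb5 overlapped. Of all genes tested, 20% were higher in this way. With TPM scaling Psmb3 overlapped too, which left 3 of the 7 genes separated, where 16.2% of all genes tested were. The median of the 7 genes was 0.12 on the log2 scale. The cutting subunits set the specificity of the particle. Psmb7 (ENSMUSG00000026750; chromosome 2, 38588036 to 38644087), whose product has the trypsin-like activity, was at 11.9 and 12.1 FPKM in Dhps cko and at 10.8 and 10.1 FPKM in Dhps flox. Its means were 11.97 ± 0.156 and 10.4 ± 0.481 FPKM (SD, n = 2), and its log2 fold change was 0.20 with an SE of 0.07 and an interval of 0.01 to 0.39 (limma unadjusted p = 0.043, adjusted p = 0.70). Of its exon bases, 11.8% overlap exons of Nek6, so some reads could have been counted for either gene. Psmb6 (ENSMUSG00000018286; chromosome 11, 70525367 to 70527858), with the caspase-like activity, was at 16.7 and 17.0 FPKM in Dhps cko and 15.4 and 15.5 FPKM in Dhps flox. Its means were 16.8 ± 0.219 and 15.5 ± 0.0849 FPKM (SD, n = 2), and its log2 fold change was 0.12 (SE 0.06, limma adjusted p = 0.77). Psmb5 (ENSMUSG00000022193; chromosome 14, 54614119 to 54618022), with the chymotrypsin-like activity, was at 19.6 and 22.4 FPKM in Dhps cko and at 21.7 and 17.2 FPKM in Dhps flox. These overlapped, with means of 21 ± 2.01 and 19.5 ± 3.2 FPKM (SD, n = 2), a log2 fold change of 0.12 (SE 0.14, limma adjusted p = 0.90) and an interval of -0.23 to 0.47. Without Dhps flox replicate 2 the log2 fold change of Psmb5 was -0.05. Of the exon bases of Psmb5, 12.1% are shared with Mir686. Psmb1, a non-catalytic beta subunit gene, differed by 0.00 on the log2 scale (SE 0.09). Its sign turned negative with TPM scaling, size factors, quantile normalisation and the length correction. Of the other beta genes, Psmb3 was at 23.1 and 20.03 FPKM in Dhps cko and 18.9 and 19.4 FPKM in Dhps flox, and Psmb4 was at 25.6 and 25.0 against 24.3 and 22.4 FPKM. Psmb2 overlapped, at 33.3 and 29.2 against 28.7 and 30.1 FPKM.

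Short stretches of the promoters of 4 members that were higher in both Dhps cko libraries are shown because proteasome genes are known to be regulated in common. These stretches hold the letters of 3 motifs that were searched for, and lie outside annotated exons. The motifs were CCAAT, the core bound by the factor NF-Y, CCGGAA, a core bound by ETS factors, and TGACNNNGC, the core of the antioxidant response element to which Nfe2l1 and related factors bind. Each was searched on both strands in the 250 bases before the start of the gene in RefSeq promoters (GRCm38.p6), which matched 37 of the 45 members. Capitals mark the motif, including its reverse complement, and all sequences are given 5′ to 3′ on the strand of the gene.
Psma1, chr7:114276208-114276272, minus strand: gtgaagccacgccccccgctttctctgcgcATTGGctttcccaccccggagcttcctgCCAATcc
Psmb3, chr11:97703319-97703383, plus strand: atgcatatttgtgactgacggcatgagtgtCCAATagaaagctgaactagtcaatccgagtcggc
Psmd4, chr3:95042706-95042771, minus strand: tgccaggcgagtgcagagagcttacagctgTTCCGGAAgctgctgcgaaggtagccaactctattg
Psmb6, chr11:70525318-70525356, plus strand: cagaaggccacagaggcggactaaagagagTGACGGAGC
In Psma1 the CCAAT motif occurs in both orientations. In Psmd4 the letters of CCGGAA and its reverse complement overlap. In Psmb6 the motif starts 9 bases before the RefSeq start of the gene, which lies upstream of the start given above.

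CCGGAA was found in 17 of the 37 members with a promoter (45.9%), in 12% of all 32851 promoters and in 24.4% of the 10685 tested genes with a promoter. Most of these members belong to the 19S particle. The motif was in 10 of 14 19S genes (Psmc1, Psmc2, Psmc5, Psmc6, Psmd2, Psmd4, Psmd6, Psmd11, Psmd12 and Psmd13) but in 2 of 12 core genes, Psma5 and Psma6. It was also in 3 of 5 activator and inhibitor genes and 2 of 6 assembly genes. CCAAT was in 13 of the 37 members (35.1%), 33.8% of all promoters and 40.1% of tested genes, with 7 of 12 core genes (Psma1, Psma2, Psma3, Psma6, Psma7, Psmb3 and Psmb11) and 4 of 14 19S genes. In these promoter counts the core genes were drawn from all Psma and Psmb members, including Psmb11, which was not tested for expression. TGACNNNGC was in 5 members, Psmb5, Psmb6, Psmc6, Psmd9 and Psmd12 (13.5%), in 10.2% of all promoters and in 13.7% of tested genes. None of the 3 immunoproteasome genes held this motif. A match of letters does not show that a factor was bound.

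Of the 17 genes of the 19S particle, 7 were higher in both Dhps cko libraries and the other 10 overlapped, while 20% of all genes tested were higher and 16.0% lower in this way. With TPM scaling 4 were higher in both, as Psmc3, Psmd7 and Psmd8 overlapped, and Psmd1 was lower in both. Their median log2 fold change was 0.07, against 0.12 for the 14 core genes, and the range was from -0.02 to 0.18. Of the 17, 0 had an unadjusted p under 0.05, as 7.0% of all genes tested did in either direction. With TPM scaling, 10 of the 17 were above 0, instead of 14. Among the ATPase genes, which encode the unfolding motor, Psmc5 was at 21.1 and 19.7 FPKM in Dhps cko and at 18.7 and 17.3 FPKM in Dhps flox. Its log2 fold change was 0.18 with an SE of 0.08 (limma unadjusted p = 0.062, adjusted p = 0.74). Psmc3 was at 30.4 and 29.6 against 27.7 and 28.9 FPKM, whereas Psmc1 (25.8 to 28.6 FPKM), Psmc2 (10.6 to 12.01 FPKM), Psmc4 (19.6 to 22.6 FPKM) and Psmc6 (15.0 to 18.5 FPKM) overlapped. Of the exon bases of Psmc3, 8.25% overlap Slc39a13. The products of these 6 genes form 1 ring, and their log2 fold changes ran from -0.01 for Psmc6 to 0.18 for Psmc5.

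In the base and lid, Psmd4, which encodes a receptor for ubiquitin chains, was at 27.1 and 25.5 FPKM in Dhps cko and 23.4 and 23.9 FPKM in Dhps flox. Its log2 fold change was 0.15 with an SE of 0.06 (limma unadjusted p = 0.060, adjusted p = 0.74). The lid genes Psmd6, Psmd7, Psmd8 and Psmd13 were also higher in both Dhps cko libraries, with log2 fold changes of 0.13, 0.15, 0.07 and 0.13. The value of Psmd6 was 0.07 without Dhps flox replicate 2. Psmd6 was at 11.6 and 11.4 against 10.9 and 10.01 FPKM, Psmd8 at 22.6 and 22.5 against 21.2 and 21.8 FPKM, and Psmd13, with 10.1% of its exon bases overlapping Sirt3, at 21.7 and 22.1 against 19.6 and 20.3 FPKM. Psmd7 was at 8.88 and 10.5 FPKM in Dhps cko and 8.76 and 8.64 FPKM in Dhps flox, and without Dhps cko replicate 2 its log2 fold change was 0.03. Psmd14, which encodes the deubiquitinase of the lid, was at 15.5 and 15.2 FPKM in Dhps cko and 16.4 and 14.7 FPKM in Dhps flox, with a log2 fold change of -0.02. The scaffold genes Psmd1 (7.75 to 8.11 FPKM) and Psmd2 overlapped as well, with log2 fold changes of -0.02 and 0.01. Psmd2 was at 26.9 and 25.9 FPKM in Dhps cko and 25.3 and 26.9 FPKM in Dhps flox, and its 95% interval ran from -0.15 to 0.18. The remaining lid genes Psmd3 (11.1 to 12.02 FPKM), Psmd11 (7.05 to 7.82 FPKM) and Psmd12 (13.0 to 13.6 FPKM) differed by 0.07 or less on the log2 scale and overlapped.

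The particles were also compared by their summed levels. The 14 core genes summed to 288.2 and 289.5 FPKM in Dhps cko and to 268.5 and 261.8 FPKM in Dhps flox, so that the Dhps cko mean was 109.0% of the Dhps flox mean. Without Psma6, which alone holds a large part of the sum, it was 108.2%. The 17 genes of the 19S particle summed to 303.7 and 299.8 FPKM and to 288.9 and 286.4 FPKM, a mean of 104.9%. The ratio of the 19S to the 20S sum, in which the scaling of the library cancels, was 1.05 and 1.04 in Dhps cko and 1.08 and 1.09 in Dhps flox. On the FPKM scale neither these sums nor their ratio overlapped between genotypes. A two-sided exact permutation test of 2 libraries against 2 gave p = 0.33 for each, which is the smallest p that this design can reach before any adjustment for the number of quantities compared. With TPM scaling the 19S sum overlapped, at 302.7 and 294.2 in Dhps cko and 286.9 and 295.01 in Dhps flox after every library was brought to the mean FPKM total (exact permutation p = 0.67), whereas the core sum did not.

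**Figure D3:**
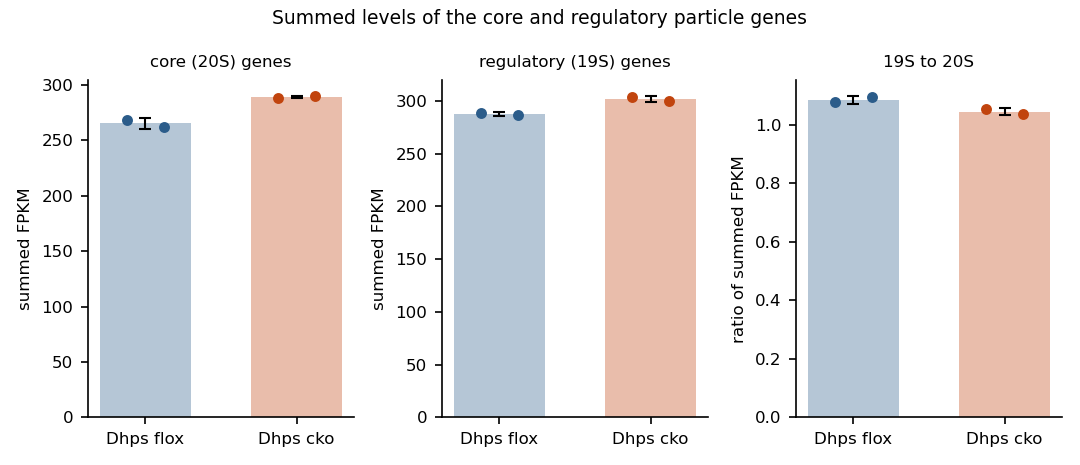
Summed FPKM of the 14 core genes, summed FPKM of the 17 genes of the 19S particle, and the ratio of the sums, with points for libraries, bars for the mean and error bars for the SD (n = 2). Both Dhps cko libraries lie above both Dhps flox libraries in the sums (the 19S sum overlapped with TPM scaling), and below them in the ratio.

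Of the 5 activator and inhibitor genes, 1 was higher and 2 were lower in both Dhps cko libraries, against 20% and 16.0% of all genes tested. Psme1 (ENSMUSG00000022216; chromosome 14, 55578123 to 55581529), an interferon-inducible subunit of the PA28 cap, had the lowest p of all members. It was at 25.4 and 26.8 FPKM in Dhps cko and at 22.5 and 22.3 FPKM in Dhps flox, with means of 26.1 ± 0.997 and 22.4 ± 0.127 FPKM (SD, n = 2). Its log2 fold change was 0.22 with an SE of 0.06 and an interval of 0.06 to 0.38 (limma unadjusted p = 0.016, adjusted p = 0.58). The PA28 cap is a ring of Psme1 and Psme2 subunits, but Psme2 overlapped between genotypes, at 13.6 and 12.1 FPKM in Dhps cko and 13.3 and 11.6 FPKM in Dhps flox. Psme2 has a near-identical copy, Psme2b, at 16.5 and 16.4 against 13.7 and 12.7 FPKM (log2 fold change 0.32, SE 0.07, limma adjusted p = 0.51). Reads could have been split between Psme2 and Psme2b, so the values of both are uncertain. Psme3, which encodes the nuclear activator PA28 gamma and was the most abundant member of this group, was at 33.2 and 32.9 FPKM in Dhps cko and 33.9 and 34.0 FPKM in Dhps flox, a log2 fold change of -0.04. Psme4 (ENSMUSG00000040850; chromosome 11, 30771726 to 30880361), which encodes PA200, was at 9.99 ± 0.184 and 10.7 ± 0.106 FPKM (SD, n = 2). Its log2 fold change was -0.09 (SE 0.07, limma adjusted p = 0.82). Psmf1 (ENSMUSG00000032869; chromosome 2, 151715812 to 151744186), which encodes the inhibitor PI31, overlapped at 2.45 ± 0.247 and 2.61 ± 0.297 FPKM (SD, n = 2; log2 fold change -0.09, SE 0.15, limma adjusted p = 0.94). Its log2 fold change was 0.01 without Dhps cko replicate 2 and 0.02 without Dhps flox replicate 2.

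Among the role groups of the members, the assembly genes had the highest median log2 fold change, 0.26, and the widest spread. That median is the value of Psmg2 (SE 0.19), which was 0.03 without Dhps flox replicate 2. The Psmg genes encode chaperones of the core particle that act in pairs, Psmg1 with Psmg2 and Psmg3 with Psmg4. Psmg4 (ENSMUSG00000071451; chromosome 13, 34162964 to 34178173) was at 1.69 and 2.90 FPKM in Dhps cko and 1.54 and 1.21 FPKM in Dhps flox, with means of 2.29 ± 0.856 and 1.38 ± 0.233 FPKM (SD, n = 2). It had the largest log2 fold change among members, 0.66, but also an SE of 0.29 (limma adjusted p = 0.75). Without Dhps cko replicate 2, the log2 fold change of Psmg4 was 0.29. Psmg3 (ENSMUSG00000029551; chromosome 5, 139823592 to 139826885) was at 1.26 and 1.45 FPKM in Dhps cko and 0.92 and 1.00 FPKM in Dhps flox. Its means were 1.35 ± 0.134 and 0.96 ± 0.0566 FPKM (SD, n = 2), and its log2 fold change was 0.45 (SE 0.18, limma adjusted p = 0.72). Of the exon bases of Psmg3, 9.68% are shared with Gm26938. Psmg1 (ENSMUSG00000022913; chromosome 16, 95979933 to 95990960) went the other way, at 1.95 and 2.59 FPKM in Dhps cko and 3.05 and 2.74 FPKM in Dhps flox. Its means were 2.27 ± 0.453 and 2.90 ± 0.219 FPKM (SD, n = 2), and its log2 fold change of -0.35 (SE 0.18, limma adjusted p = 0.77) was the lowest among members. Without Dhps cko replicate 1 it was -0.15. Its partner Psmg2 overlapped, at 2.42 and 2.51 FPKM in Dhps cko and 2.42 and 1.72 FPKM in Dhps flox. At these low levels the libraries of 1 genotype differed by up to 1.21 FPKM, as in Psmg4.

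The other assembly members encode chaperones of the 19S base. Psmd10 (ENSMUSG00000031429; chromosome X, 140948429 to 140956728), which encodes gankyrin, was at 14.3 and 15.2 FPKM in Dhps cko and at 13.0 and 12.5 FPKM in Dhps flox. Its means were 14.7 ± 0.622 and 12.7 ± 0.396 FPKM (SD, n = 2), and its log2 fold change was 0.21 with an SE of 0.07 and an interval of 0.02 to 0.39 (limma unadjusted p = 0.035, adjusted p = 0.68). Psmd10 is X-linked, and the Y-linked genes and Xist differed between the genotypes as given above. Their part in the result was not tested. Psmd9 (ENSMUSG00000029440; chromosome 5, 123169413 to 123250131) was at 1.25 ± 0.0495 and 1.01 ± 0.0212 FPKM (SD, n = 2), with a log2 fold change of 0.27 (SE 0.17, limma adjusted p = 0.80). Of the exon bases of Psmd9, 25.5% lie opposite the long noncoding RNA Gm26745. Psmd5 overlapped, at 4.11 and 4.13 FPKM in Dhps cko and 4.10 and 4.16 FPKM in Dhps flox.

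The inducible cutting subunits, which are not members, were compared with their constitutive counterparts within each library, where scaling has no effect. Psmb9, the counterpart of Psmb6, was at 8.55 and 8.42 FPKM in Dhps cko and 6.48 and 6.72 FPKM in Dhps flox (log2 fold change 0.36, SE 0.08, limma unadjusted p = 0.0057 and adjusted p = 0.50). Psmb8, the counterpart of Psmb5, was at 8.88 and 9.48 against 7.54 and 7.74 FPKM (log2 fold change 0.26, SE 0.08, limma adjusted p = 0.63). Of the exon bases of Psmb9, 5.79% overlap Tap1, which was also higher in both Dhps cko libraries. Of those of Psmb8, 14.7% overlap Gm20496. Psmb10, the counterpart of Psmb7, overlapped at 4.82 and 4.79 FPKM in Dhps cko and 4.78 and 5.67 FPKM in Dhps flox (log2 fold change -0.11, SE 0.12, limma adjusted p = 0.87). The share of Psmb9 in the sum of Psmb9 and Psmb6 was 33.9% and 33.1% in Dhps cko and 29.6% and 30.2% in Dhps flox, a difference of 3.61 percentage points without overlap. The share of Psmb10 in the sum with Psmb7 went the other way without overlap, at 28.9% and 28.4% against 30.7% and 36.0%. The share of Psmb8 in the sum with Psmb5 overlapped, at 31.2% and 29.7% against 25.8% and 31.0%. The exact permutation test gave p = 0.33, 0.33 and 0.67 for the 3 shares (two-sided, n = 2 libraries each). Over all 6 genes, the inducible share was 31.6% and 30.6% in Dhps cko and 28.2% and 32.0% in Dhps flox, which overlapped. The constitutive genes thus made up the larger part of the summed FPKM of these 6 genes in every library. A share between genes also depends on the gene lengths used for FPKM, which are not given, so the share of transcript molecules is not known. Of 22 interferon response genes tested, 21 were above and 1 was below in both Dhps cko libraries (20% and 16.0% of all genes tested were), with a summed level of 164.7 and 169.2 FPKM against 124.8 and 124.7 FPKM. Psme1, Psmb8 and Psmb9 are also interferon-inducible. So is Psmb10, which overlapped between genotypes, as did Psme2, the partner of Psme1. B cells and macrophages, whose markers were higher in Dhps cko, also express Psme1, Psmb8 and Psmb9. The sort for CD11b+ Ly6G+ cells is meant to remove those cell types. The part of interferon or of those cell types in these results was not tested.

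**Figure D4:**
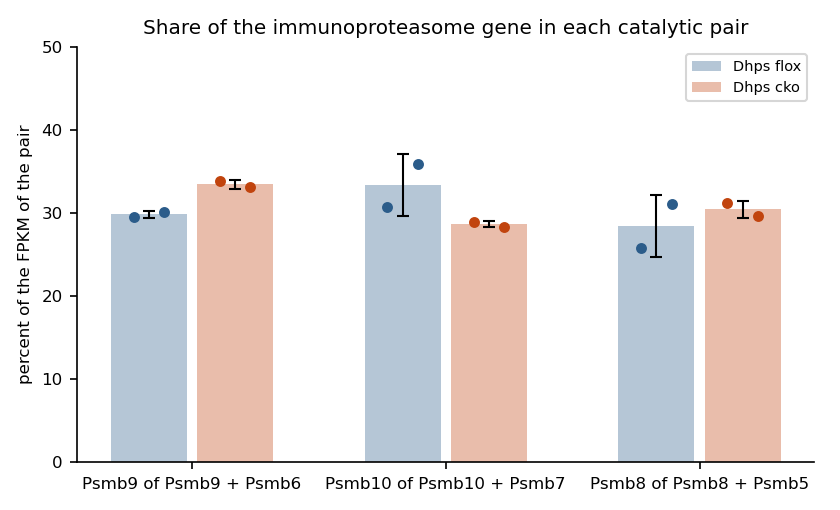
Share of the inducible gene in the summed FPKM of each catalytic pair, in percent, with points for libraries, bars for the mean and error bars for the SD (n = 2). The share of Psmb9 is higher in both Dhps cko libraries, the share of Psmb10 is lower in both, and the share of Psmb8 overlaps.

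Of 29 proteasome-associated genes, which encode ubiquitin receptors, deubiquitinases, shuttle factors and regulators of proteasome synthesis, among others, 6 were higher in both Dhps cko libraries, 7 were lower in both and 16 overlapped, which for the higher genes is close to the 20% of all genes tested (16.0% were lower). With TPM scaling 4 were higher and 10 lower (16.2% and 20.1% of all genes tested were), and with quantile normalisation 3 and 8 (17.4% and 19.1%). Their median log2 fold change was -0.01. At an unadjusted p under 0.05, where 4.72% of all genes tested were higher and 2.28% lower, 2 of the 29 (6.9%) were higher and 0 lower. Of these, Pomp, which encodes the maturation factor of the core particle, was at 5.36 and 4.72 FPKM in Dhps cko and 4.17 and 4.07 FPKM in Dhps flox (log2 fold change 0.28, SE 0.11, limma unadjusted p = 0.046 and adjusted p = 0.70). Nfe2l1, which encodes the transcription factor that induces proteasome genes when the protease is impaired, overlapped at 15.6 and 15.4 FPKM in Dhps cko and 14.2 and 16.2 FPKM in Dhps flox. Adrm1 and Usp14, which encode a ubiquitin receptor and a deubiquitinase of the 19S particle, had log2 fold changes of 0.03 and -0.06, and Sem1, a small lid subunit gene, had 0.11.

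Members also differed in length, and length moved with the difference between genotypes over all genes. Genes whose mean reached 1 FPKM were divided into 5 equal classes by the total length of their exons. The median log2 fold change of all genes was 0.09 in the shortest class, 0.06, 0.03 and -0.02 in the next, and -0.06 in the longest. The members followed the same order, with medians of 0.14, 0.11, 0.02, 0.02 and -0.01 over 8, 20, 7, 4 and 4 genes. From the shortest to the longest class, 4 of 8, 13 of 20, 3 of 7, 0 of 4 and 1 of 4 members were higher in both Dhps cko libraries, against 29.7%, 32.3%, 22.0%, 14.8% and 8.0% of all genes of those lengths. Core genes are shorter than 19S genes, with medians of 2335 and 2820 exon bases. After a correction for transcript length, the median log2 fold change was 0.06 for the core genes, 0.02 for the 19S genes and 0.04 for all members, and -0.00 for all genes tested. The part of length in the difference between the particles was not tested.

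**Figure D5:**
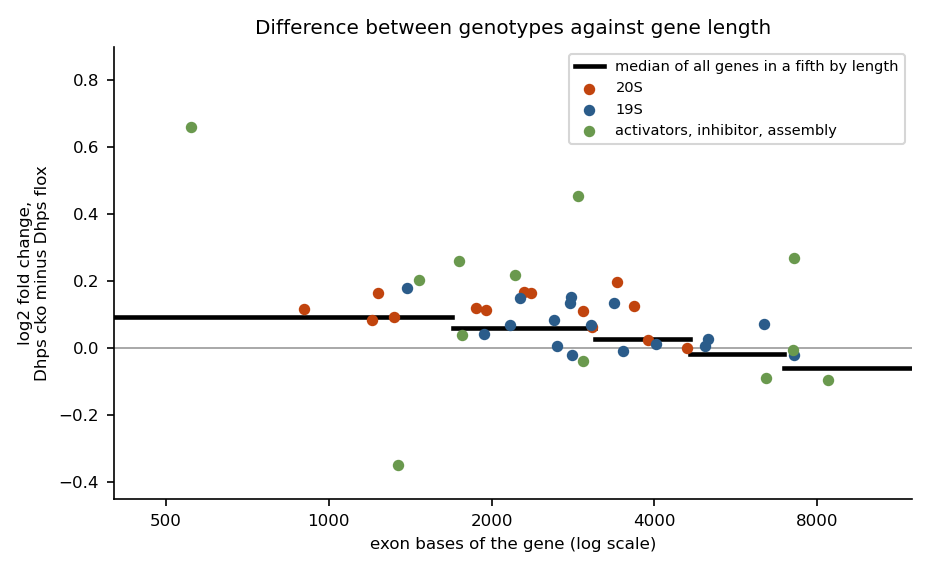
Log2 fold change of each tested member against the exon bases of its gene on a log scale, with colours for the particle and black lines for the median of all genes of at least 1 FPKM in each of 5 length classes. The line falls from 0.09 to -0.06 from the shortest to the longest class, and most members lie close to it or slightly above.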

How the data were processed

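The authors trimmed reads with cutadapt, aligned them with HISAT2 to the mouse genome (mm10 per the labels) and calculated one FPKM per gene with StringTie and ballgown, deposited with 2 decimals. The annotation version and the use of strand are not given in the sources used here. The members and gene lists were chosen with earlier results of these data known, and the Y-linked genes and Xist were added after their values were seen.

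Genes whose mean reached 0.1 FPKM were compared on log2(FPKM + 0.1) with limma 3.58.1 (lmFit, eBayes with a mean-variance trend, Benjamini-Hochberg adjustment) in R 4.3.3. Fold changes on this scale understate changes of low genes. Sums and shares were computed from FPKM in Python 3.11.15 and compared by exact permutation. The limma step was run on simulated data with planted changes larger than that of any member, so the run does not cover changes of the size reported. Exons came from GENCODE M21, which holds 28511 of the identifiers and lacks 74, and promoters from RefSeq. Full statistics were given for the 3 cutting subunits, members with an unadjusted p under 0.05 and the 3 largest rises and falls, and values for the other members by role. Depth was approximate, since 38.7% to 41.8% of low values lay within 0.15 of a whole step (chance 30%). Alternatives were a different pseudocount, filter, scaling or variance model, a length correction, a replicate block, and leaving out each library. Protein sequences were not analysed here, and the values of some associated genes are not reported here.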

Additional observations from a re-analysis of the deposited data

How the results depend on the processing

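No member had an adjusted p under 0.05 under any alternative, and the lowest was 0.50. The count of members with an unadjusted p under 0.05 (4) was 1 with TPM scaling, quantile normalisation, no mean-variance trend, a replicate block or a transcript length correction, 8 with a model of each gene alone, and 0 to 3 with each library left out. The replicate numbers are shared by name only: deviations of same-numbered libraries had a correlation of -0.06 over 10629 genes, and there are 2 pairs. Members below in both Dhps cko libraries (3) were 5 to 8 with each library left out, and members above (21) were 25 to 29, since fewer libraries separate more easily: 26.7% to 34.0% of all genes tested were then below and 32.3% to 37.1% above. The number of all genes with an adjusted p under 0.05 (1) was 0 with a pseudocount of 0.01, with no filter, with the replicate block and with each library left out, 2 with TPM scaling or quantile normalisation, 4 among genes of at least 1 FPKM and 12 with a model of each gene alone. With TPM scaling the core sum was 106.6% and the 19S sum 102.6% of Dhps flox, and the core sum ran from 107.6% to 110.3% with each library left out. The median of the activator and inhibitor genes ran from -0.047 to 0.0097 with each library left out. The cause of these changes was not tested.

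Of 705 log2 fold changes of single genes under alternatives, 47 changed sign, in 18 of 47 genes, all with a reported value of at most 0.12 in size. With TPM scaling these were Psma3 (-0.0071), Psmb1 (-0.031), Psmc2 (-0.0041), Psmd12 (-0.024), Psmd2 (-0.018) and Psmd3 (-0.025). With size factors they were Psmb1 (-0.0097), Psmd12 (-0.0019) and Psmd3 (-0.0036), and with quantile normalisation Psmb1 (-0.0068) and Psmd2 (-0.012). With the length correction they were Psma3 (-0.0012), Psmb1 (-0.012), Psmc1 (-0.012), Psmd1 (0.00034), Psmd12 (-0.036), Psmd2 (-0.0086), Psmd3 (-0.00030), Psmd5 (0.017) and Psme2 (-0.016). With each library left out, the ranges were -0.12 to 0.17 for Psma3, -0.026 to 0.22 for Psma5, -0.078 to 0.080 for Psmb1, -0.23 to 0.0074 for Psmb10, -0.0084 to 0.18 for Psmb2, -0.052 to 0.28 for Psmb5, -0.013 to 0.10 for Psmc1, -0.062 to 0.12 for Psmc2, -0.011 to 0.15 for Psmc4, -0.16 to 0.14 for Psmc6, -0.050 to 0.0098 for Psmd1, -0.022 to 0.039 for Psmd12, -0.10 to 0.061 for Psmd14, -0.032 to 0.060 for Psmd2, -0.051 to 0.065 for Psmd3, -0.014 to 0.0068 for Psmd5, -0.056 to 0.14 for Psme2 and -0.20 to 0.022 for Psmf1.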
